A study of Mus musculus with 24 samples.

Results

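The genes that run the cell cycle and copy DNA were measured in the hippocampus of C57BL/6 mouse pups at postnatal day 9. The set held 47 genes chosen by name for their role in the cycle, and it took in every non-control probe (a short DNA strand fixed to the array that captures 1 transcript) annotated to them, which gave 67 probes of 55681. The names covered 47 of 36163 gene names on the array. Each of the 15 arrays carried labelled RNA from the pooled left and right hippocampi of 1 animal, and a level is given on the log2 scale after quantile normalisation.

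The groups held 5 pups each, labelled male. The control group, Con, was left with the dam with minimal handling and received no morphine (0 mg/kg). MS2 received morphine at 2 mg/kg and MS5 at 5 mg/kg, given from postnatal day 5 together with a daily stress of separation from the dam, isolation in a warmer and a simulated apnea of nitrogen followed by oxygen. Every morphine-treated pup was therefore also stressed and no control was, so morphine and stress cannot be told apart against Con, whereas MS5 and MS2 differed, by their labels, in the dose alone. Probes were tested with limma, a linear model fitted to all 55681 probes. A probe is called where the unadjusted p of limma was under 0.05, and Benjamini-Hochberg adjustment was made over all probes. Single genes are given with the p of a two-sided exact permutation test over the arrays, which with 5 against 5 cannot go below 0.00794. By the study's methods, treated pups shared a home cage with control littermates, so litters ran across the groups. The litter of each array is not given in the labels, so no litter term could be fitted and the p-values measure the spread between these animals.

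Some arrays stood apart before any comparison was made. MS5 replicate 9, labelled male, had Xist, the transcript of the inactive X chromosome, at 11.3 and 9.45 on its probes. Ddx3y and Eif2s3y, genes of the Y chromosome, read 6.24 and 6.77 there, against means of 11.26 and 12.33 on the other arrays. These levels go against a male label. MS2 replicate 4 had the median of 13 hypothalamus and thalamus marker probes 2.56 above the control mean and that of 9 hippocampal neuron marker probes at -1.98 on the same scale, which goes against a hippocampal label. MS2 replicate 5 was dim, with 66.2% of probes well above background against 71.7% to 78.3% on the other arrays. The arrays came from 2 slides, and each slide held all groups. Slide 1 carried 3 Con, 3 MS2 and 2 MS5 arrays, and slide 2 carried 2, 2 and 3. The cycle genes themselves were readily measured, since the brightest probe of 44 of the 47 was well above background throughout 1 group or more. The exceptions were Aurkb and Ccne2, which reached that level on 0 arrays, and Cdk6.

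A dividing cell passes through G1, copies its DNA in S phase and separates the copies in mitosis. D-type cyclins with Cdk4 and Cdk6, then cyclin E with Cdk2, release the E2F factors that switch on S-phase genes. Cdc6 and Cdt1 load the Mcm2-7 helicase at origins, polymerases and the Pcna clamp copy the strands, and cyclin B with Cdk1 drives mitosis under the watch of the spindle checkpoint. In the hippocampus of a pup of this age the dentate gyrus is still adding granule neurons and glial precursors still divide. In tissue RNA of this kind, fewer dividing cells and less RNA per cell cannot be told apart.

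The promoters of the cycle genes carry known sequence elements, and these are shown first because they set the roles of the genes apart by sequence. RefSeq promoters (build GRCm38.p6, from 250 bases before to 50 after the annotated start, 300 bases in all) were found for 39 of the 47 genes, as 42 promoters. Printed below are the bases from 150 before to 30 after the start of 6 genes on which the results turn, 5′ to 3′ on the strand of the gene. They span the transcription start and so hold promoter and the first bases of the first exon. Cdk1 is at chr10:69352883-69353062 on the minus strand, Ccnb1 at chr13:100786457-100786636 on the minus strand, Bub1b at chr2:118598061-118598240 on the plus strand, Cenpa at chr5:30666736-30666915 on the plus strand, Mcm7 at chr5:138171854-138172033 on the minus strand and Cdk2 at chr10:128705022-128705201 on the minus strand. Capitals mark a match on either strand to the CHR element (TTTGAA), the CCAAT box (CCAAT) or an E2F site (written TTTCGCGC, or with changed middle bases as TTTGGCGC, or as TTTCCCGC). The E2F match and the last CCAAT box of Mcm7 overlap.
Cdk1: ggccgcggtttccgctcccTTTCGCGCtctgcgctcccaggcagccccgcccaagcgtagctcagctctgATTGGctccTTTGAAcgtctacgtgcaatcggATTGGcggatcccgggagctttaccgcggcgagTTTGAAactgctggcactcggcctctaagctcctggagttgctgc
Ccnb1: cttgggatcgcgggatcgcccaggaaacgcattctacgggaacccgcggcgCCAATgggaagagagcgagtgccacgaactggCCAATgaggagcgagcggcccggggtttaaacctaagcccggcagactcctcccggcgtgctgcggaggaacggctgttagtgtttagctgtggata
Bub1b: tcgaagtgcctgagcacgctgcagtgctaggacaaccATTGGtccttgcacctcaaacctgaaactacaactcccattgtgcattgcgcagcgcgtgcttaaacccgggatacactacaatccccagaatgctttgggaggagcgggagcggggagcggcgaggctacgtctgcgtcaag
Cenpa: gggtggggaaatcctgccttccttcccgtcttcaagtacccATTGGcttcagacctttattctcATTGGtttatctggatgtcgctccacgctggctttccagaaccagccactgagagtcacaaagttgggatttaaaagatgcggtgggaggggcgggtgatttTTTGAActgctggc
Mcm7: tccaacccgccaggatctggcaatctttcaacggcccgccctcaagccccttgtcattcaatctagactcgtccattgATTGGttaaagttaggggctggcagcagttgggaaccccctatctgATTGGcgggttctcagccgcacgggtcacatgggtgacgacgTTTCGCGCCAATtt
Cdk2: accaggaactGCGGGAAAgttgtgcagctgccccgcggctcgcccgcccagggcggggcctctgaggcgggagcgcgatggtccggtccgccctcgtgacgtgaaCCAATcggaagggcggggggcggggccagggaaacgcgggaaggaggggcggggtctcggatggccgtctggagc

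Within these 180 bases Cdk1 held 2 CHR elements, 2 CCAAT boxes and 1 E2F site. Ccnb1 and Cenpa held 2 CCAAT boxes each, with 1 CHR element in Cenpa. Mcm7 held 3 CCAAT boxes and 1 E2F site, Cdk2 held 1 CCAAT box and 1 E2F site, and Bub1b held 1 CCAAT box. Over the whole 300 bases, 69.0% of the member promoters held a CCAAT box against 37.4% of all 32851 promoters in the table. The E2F letters stood in 23.8% of member promoters and in 1.84% of all, and the CHR element in 31.0% and 17.9%. The elements divided by role. CHR stood in 6 of 8 promoters of mitotic cyclins, kinases and checkpoint genes and in 5 of 7 of chromosome and spindle genes, but in 0 of 7 of G1 genes and 0 of 8 of polymerase and nucleotide genes. E2F letters stood in 6 of 9 licensing and helicase promoters and in 0 of 7 chromosome and spindle promoters. Such a match is a description of the letters and not a measured binding site.

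**Figure D1:**
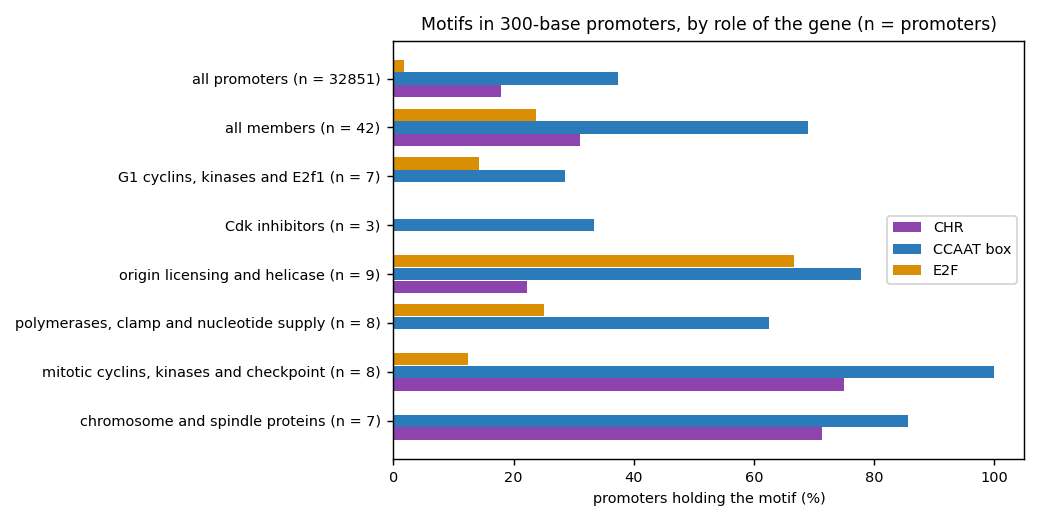
Share of 300-base RefSeq promoters (%) that hold a CHR element, a CCAAT box or an E2F site, for all 32851 promoters, for the 42 member promoters and for each role (n in brackets). E2F letters are most frequent in the licensing and helicase genes (6 of 9) and CHR in the mitotic genes (6 of 8), each above its share over all promoters.

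Against Con, most of the cycle probes had a lower mean in the treated groups, but by small amounts. In MS2, 54 of 67 were lower, where 51.0% of all probes were lower, and the median difference was -0.09 on the log2 scale against 0.00 for all probes. In MS5, 56 of 67 were lower, where 49.8% of all probes were lower, and the median difference was -0.10. Differences ran from -0.34 to 0.42 in MS2. No cycle probe passed 1.5-fold with an unadjusted p under 0.05 in any comparison, a threshold that 0.0233% of all probes passed in MS2 versus Con, 0.228% in MS5 versus Con and 0.129% in MS5 versus MS2.

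Calls were few. In MS2 versus Con, 7 of the 67 probes were called, 6 lower and 1 higher, where 4.17% of all probes were called and 2.12% were called lower. In MS5 versus Con 7 were also called, 6 lower and 1 higher, where 3.90% of all were called and 2.43% were called lower. Between the doses, MS5 versus MS2, 1 of 67 was called where 3.97% of all were, and 39 of 67 were lower where 49.3% of all were. With the dose (0, 2 and 5 mg/kg) as a number, 5 were called, 4 of them lower, where 3.97% of all were called and 2.5% called lower. After adjustment over all 55681 probes no probe of any kind was called by limma (0% in MS2 versus Con, 0% in MS5 versus Con and 0% in MS5 versus MS2). The smallest adjusted p over the whole array was 0.970 in MS2 versus Con, 0.635 in MS5 versus Con and 1.00 in MS5 versus MS2.

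Each array can also be summed up by the median of the 64 cycle probes that were well above background on any array, after the control mean of each probe is taken away. The Con arrays ran from -0.11 to 0.15, the MS2 arrays from -0.14 to -0.01 and the MS5 arrays from -0.20 to 0.02. The groups overlapped, and the 5 control animals alone spanned most of the range. Con replicate 19 was the highest control for 33 of the 44 genes measured above background, and Con replicates 15 and 17 were the lowest for 19 each. The range over the control animals was thus wider than the median difference between groups. Without Con replicate 19, 46 of 67 probes were lower in MS2 with 3 called and a median of -0.05, and 50 of 67 were lower in MS5 with 3 called and a median of -0.04, where 2.93% and 3.55% of all probes were called. Without MS2 replicate 4 and MS5 replicate 9, which went against their labels, 56 were lower and 6 called in MS2, and 52 were lower and 7 called in MS5, where 3.88% and 5.71% of all probes were called.

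**Figure D2:**
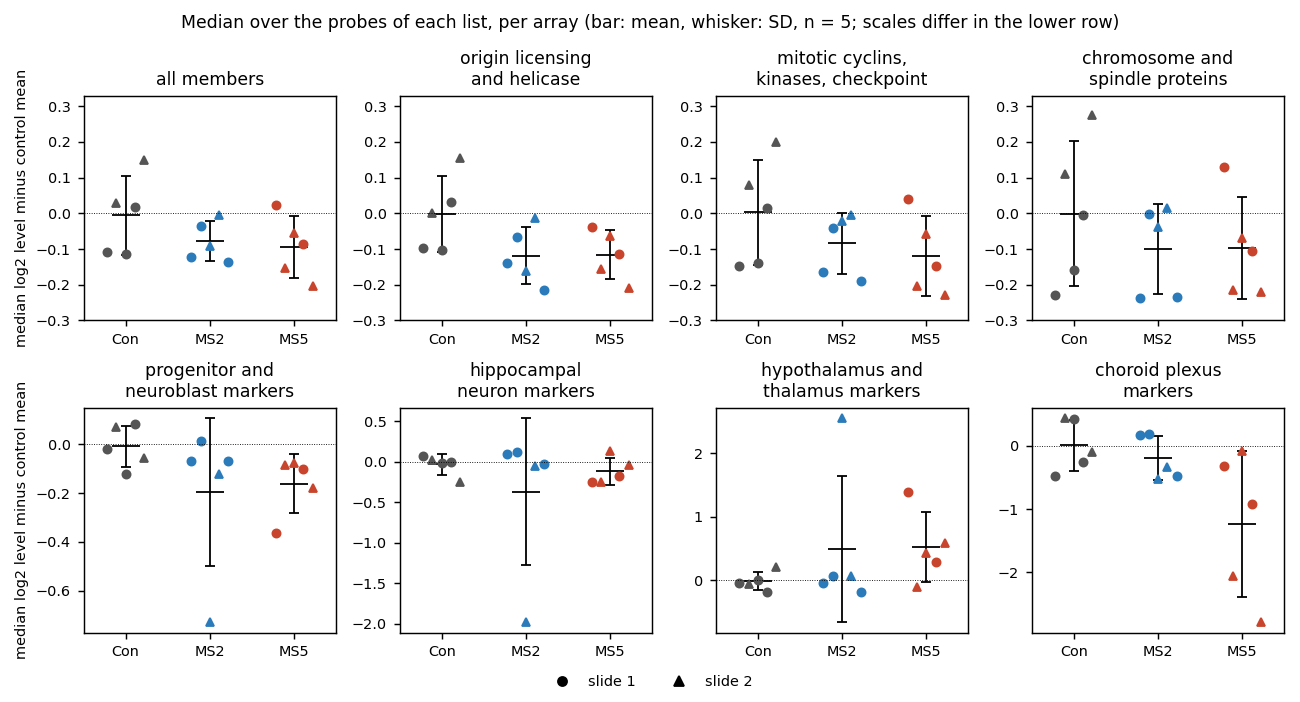
Median over the probes of each list of the log2 level minus the control mean, per array, with group mean (bar) and SD (whisker, n = 5 arrays); circles are slide 1 and triangles slide 2, and the lower panels have scales of their own. The cycle lists overlap between groups, with the 5 Con arrays from -0.11 to 0.15 over all members, while MS2 replicate 4 (median 2.56 for hypothalamus and thalamus) and the lowest MS5 arrays for choroid plexus (-2.79 and -2.06) lie far from the rest.

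Among the G1 genes (13 probes), 9 were lower in MS2 with a median of -0.10 and 10 were lower in MS5 with a median of -0.06. Values of single arrays are listed here and below in the order of replicates 15, 16, 17, 18 and 19 of Con, 1, 3, 4, 5 and 7 of MS2 and 8, 9, 12, 13 and 14 of MS5. Cdk2, the kinase partner of cyclin E, stood at 8.05, 8.18, 8.05, 8.28 and 8.46 in Con, at 7.98, 8.04, 8.06, 8.03 and 7.92 in MS2 and at 8.12, 7.85, 7.95, 8.17 and 7.93 in MS5. The highest MS2 array lay just above the lowest controls, so the groups met at the edge. The mean was 0.87-fold of Con in MS2 (log2 difference -0.20, SE 0.079, exact permutation p = 0.0238) and 0.87-fold in MS5 (-0.20, exact permutation p = 0.0714), both called by limma. Without Con replicate 19, the highest control, these differences were -0.13 and -0.14, and neither was called.

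Ccnd3, cyclin D3, stood at 12.58, 13.15, 12.91, 12.80 and 12.93 in Con and at 12.64, 12.64, 12.63, 12.65 and 12.43 in MS5. The MS5 arrays were tight and sat at the lower edge of a wide control group. The MS5 difference was -0.28 (SE 0.106, exact permutation p = 0.0397) and was called, and the other Ccnd3 probe gave -0.19, not called. In MS2 the difference of the first probe was -0.20 and was not called. Ccnd2, the D-type cyclin of granule cell precursors, was 13.60 ± 0.11 in Con, 13.26 ± 0.70 in MS2 and 13.49 ± 0.16 in MS5 (SD, n = 5). Its MS2 mean was set by replicate 4 at 12.03, since the other MS2 arrays read 13.40 to 13.72, and its difference of -0.34 was not called and became -0.03 without that array.

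Ccne1, cyclin E1, ran the other way. Its dimmer probe was 7.41, 7.31, 7.41, 7.32 and 7.37 in Con and 7.45, 7.45, 7.72, 7.47 and 7.47 in MS2, so the groups did not overlap. The difference was 0.15 (SE 0.065, exact permutation p = 0.00794, the smallest possible) and was called, whereas without MS2 replicate 4 it was 0.09 and was not called. The brighter Ccne1 probe gave 0.19, not called by limma (exact permutation p = 0.0476), and 0.09 without MS2 replicate 4, its highest array. Ccnd1 differed by 0.01 in MS2 and -0.10 in MS5, Cdk6 by -0.05 and 0.00, and E2f1, the S-phase transcription factor, by -0.09 and -0.17, with none of these called. Without MS2 replicate 4 the E2f1 differences were 0.04, not called, and -0.17, called.

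The Cdk inhibitors (5 probes) were not called in any comparison, with medians of 0.14 in MS2 and 0.09 in MS5. Cdkn1a encodes p21, which halts the cycle after p53 is active. Its brightest probe (mm9 chr17:29237377-29237436, plus strand) was spotted 10 times on each array, and the spots of 1 array had a median SD of 0.11. It read 10.34, 10.30, 10.51, 10.24 and 10.47 in Con, 10.61, 10.38, 12.09, 10.42 and 10.46 in MS2 and 10.97, 10.53, 10.59, 10.66 and 10.52 in MS5. These are the values of the first of the 10 spots, as deposited. In them every MS5 array was above every Con array, but the lowest MS5 value was 10.517 and the highest control 10.514. By the mean of the 10 spots the groups overlapped, with Con replicate 17 at 10.51 above MS5 replicates 9 (10.49) and 14 (10.47). The differences and p that follow are those of the first spot. The MS5 difference was 0.28 (SE 0.254), not called by limma, with an exact permutation p of 0.00794. The limma fit shares its estimate of the spread over all groups, MS2 replicate 4 included. Without that array the MS5 difference was 0.28 and was called, and the MS2 difference was 0.10 in place of 0.42, not called in either fit. The probes of Cdkn1a disagreed, however, since a second probe nearer the 5′ end of its annotated transcript (mm9 chr17:29227986-29228045) differed by -0.29 in MS5 and the remaining one by 0.09. Cdkn1b, encoding p27, differed by -0.17 in MS2 and -0.12 in MS5 by its brightest probe and by 0.14 and 0.20 by the other, again with no call. Without MS2 replicate 4, which read 12.04 against 12.62 to 12.70 on the other MS2 arrays, the Cdkn1b difference by its brightest probe was -0.04 in MS2, not called, and -0.12 in MS5, called, and that of the other probe was 0.26 in MS2, called, and 0.20 in MS5, not called.

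Licensing and helicase genes (13 probes) were lower for 12 probes in MS2 and 12 in MS5, with medians of -0.12 and -0.14. In MS2, 3 were called lower, and in MS5 2 were called lower and 1 higher. Mcm7, a subunit of the helicase, stood at 12.20, 12.38, 12.17, 12.18 and 12.55 in Con, at 11.98, 12.24, 11.90, 12.11 and 11.94 in MS2 and at 12.26, 12.02, 12.13, 12.18 and 11.99 in MS5. All but 1 MS2 array lay below every control. The MS2 difference was -0.26 (0.83-fold, SE 0.084, exact permutation p = 0.0317) and the MS5 difference -0.18 (exact permutation p = 0.103), both called by limma. Of 28 alternative settings, the MS5 call was lost in 15 and the sign turned in 1, within slide 1.

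Cdc6, which loads the helicase onto origins, stood at 6.98, 7.09, 6.98, 7.07 and 7.28 in Con, at 6.86, 6.98, 6.77, 6.91 and 6.97 in MS2 and at 6.94, 7.04, 6.91, 6.90 and 6.78 in MS5. Differences were -0.18 in MS2 (SE 0.063, exact permutation p = 0.0159) and -0.16 in MS5 (exact permutation p = 0.0317), both called, and the other Cdc6 probe gave -0.14 and -0.05, not called. The groups overlapped at the low controls. Mcm2 was 9.52 in Con, 9.34 in MS2 and 9.39 in MS5 on average, a difference of -0.18 in MS2 that was called (exact permutation p = 0.0635) but lost the call in 14 of 27 alternative settings. Mcm6 differed by -0.12 and -0.17, and Gmnn, the inhibitor of licensing, by 0.01 and -0.01 by its brightest probe, with no call.

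Cdc45, which joins the helicase to make it active, was the exception in its role. It stood at 7.52, 7.54, 7.59, 7.42 and 7.63 in Con, at 7.50, 7.46, 7.45, 7.49 and 7.56 in MS2 and at 7.63, 7.72, 7.61, 7.60 and 7.74 in MS5. Every MS5 array lay above every MS2 array, and MS5 met only the highest control. The difference was 0.12 in MS5 versus Con (SE 0.045, exact permutation p = 0.0317) and 0.17 in MS5 versus MS2 (exact permutation p = 0.00794), both called. It was the only cycle probe whose MS5 and MS2 arrays did not overlap, where 0.621% of all probes did not. Against Con, non-overlap was seen for Bub1b and the dimmer Ccne1 probe in MS2, where 0.702% of all probes did not overlap. In MS5 it was seen for the brightest Cdkn1a probe, where 0.828% did not, but by its first spot and not by the mean of its spots.

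The polymerase, clamp and nucleotide supply genes (12 probes) had medians of -0.03 in MS2 and -0.08 in MS5. Pold1, the catalytic subunit of polymerase delta, was the only one called, at 10.57 in Con and 10.42 in MS2 on average (difference -0.14, exact permutation p = 0.0159), and the call was lost in 17 of 27 alternative settings. Pcna, the sliding clamp, differed by -0.03 in MS2 and -0.02 in MS5. Rrm2, the regulated subunit of ribonucleotide reductase, differed by -0.14 and -0.16, and Tyms, which makes thymidylate, by 0.02 and -0.08.

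Mitotic cyclins, kinases and checkpoint genes (14 probes) were lower for 12 probes in MS2 and for all 14 in MS5, with medians of -0.06 and -0.10. Bub1b, the BubR1 kinase of the spindle checkpoint, had the smallest p of the members by limma in MS2. It stood at 8.74, 8.92, 8.70, 8.81 and 8.89 in Con, at 8.52, 8.64, 8.34, 8.57 and 8.62 in MS2 and at 8.78, 8.67, 8.50, 8.71 and 8.53 in MS5. No MS2 array reached the lowest control, and MS5 overlapped both. The MS2 difference was -0.27 (0.83-fold, SE 0.069, exact permutation p = 0.00794, adjusted p = 0.970) and the MS5 difference -0.17 (exact permutation p = 0.0476, adjusted p = 1.00), both called before adjustment.

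Cdk1, the kinase that triggers mitosis, stood at 8.68, 8.91, 8.62, 8.97 and 8.91 in Con, at 8.67, 8.79, 8.73, 8.90 and 8.57 in MS2 and at 8.66, 8.47, 8.78, 8.61 and 8.40 in MS5. The MS5 arrays reached lower than any control but overlapped with the pair of low controls. The MS5 difference was -0.23 (0.85-fold, SE 0.087, exact permutation p = 0.0476) and was called, and the MS2 difference was -0.09 (exact permutation p = 0.325). The dimmer Cdk1 probes gave -0.10 and -0.04 in MS5 and were not called. Per mg/kg of dose the fitted level of Cdk1 differed by -0.05, and Cdk1 had the smallest limma p of the members for the dose trend. The others called for the dose trend were Ccnd3 (-0.05 per mg/kg), Cdk2 (-0.04) and Cdc6 (-0.03) in the lower direction and Cdc45 (0.03) in the higher. Of 27 alternative settings, the trend call was lost in 17 for Cdc6, in 12 for Cdk2 with its sign turned in 1 more, in 8 for Cdc45, in 4 for Ccnd3 and in 3 for Cdk1. Ccnb1, cyclin B1, differed by -0.05 in MS2 and -0.13 in MS5, Plk1, the polo kinase, by -0.03 and -0.08, and Cdc20, the activator of the anaphase complex, by -0.13 and -0.17, with no call. Aurkb, which was not above background, differed by -0.01 and 0.00.

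Chromosome and spindle genes (10 probes) were lower for 10 probes in MS2 and 9 in MS5, with medians of -0.09 and -0.11, and none was called. Mki67, the common marker of dividing cells, stood at 11.57, 12.10, 11.73, 11.77 and 12.26 in Con, at 11.62, 11.80, 11.77, 11.89 and 11.43 in MS2 and at 12.10, 11.65, 11.74, 11.60 and 11.76 in MS5. The 5 controls alone spanned a wider range than any treated group. Its differences were -0.19 in MS2 (95% confidence interval -0.47 to 0.09, exact permutation p = 0.278) and -0.12 in MS5 (-0.40 to 0.16, exact permutation p = 0.476). Top2a, the topoisomerase that untangles chromosomes, differed by -0.14 and -0.08, and Birc5, the survivin subunit of the chromosome passenger complex, by -0.06 and -0.15.

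**Figure D3:**
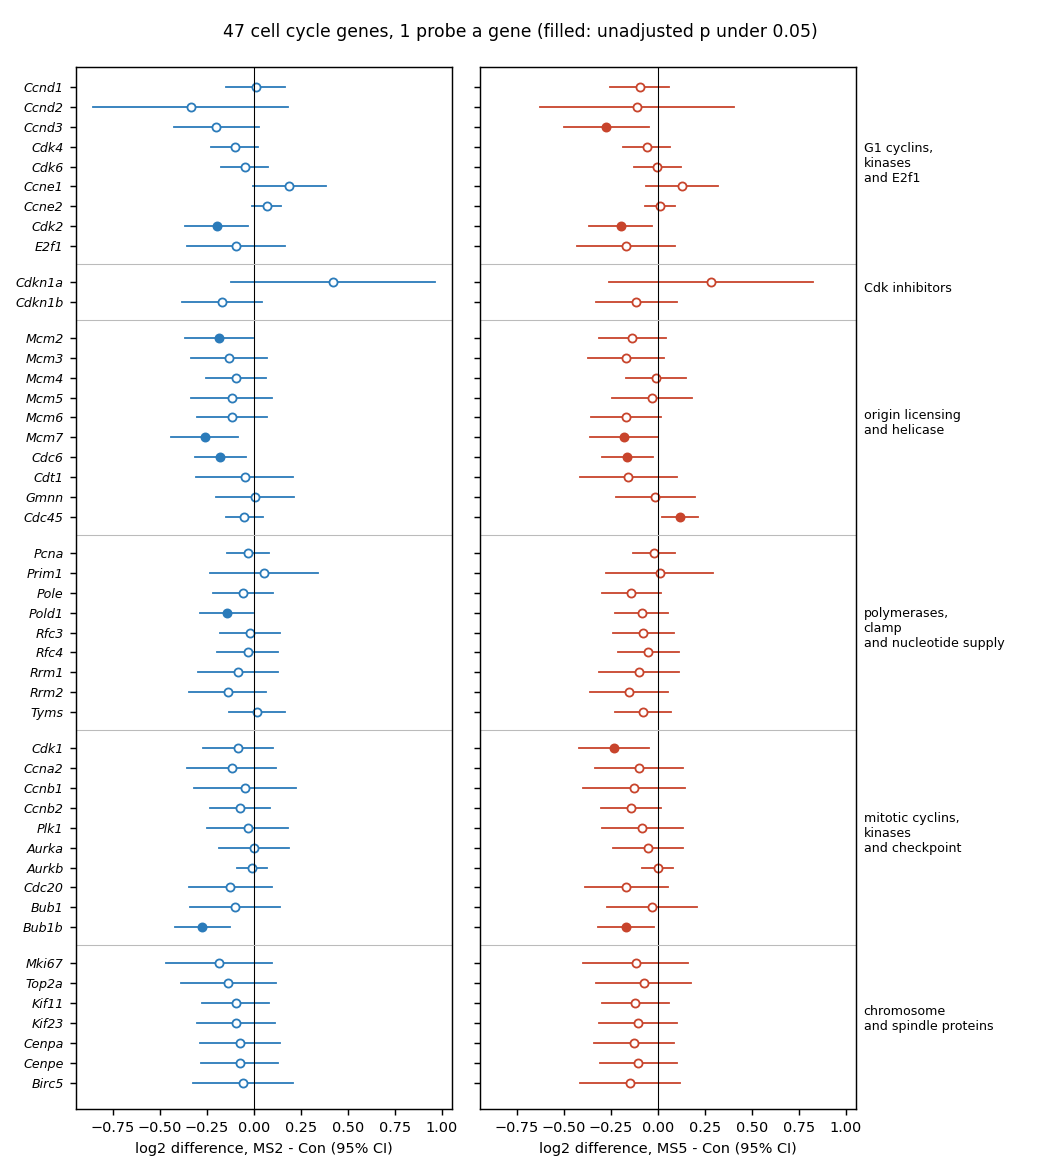
Log2 difference from Con of the 47 genes (1 probe a gene, the brightest) with the 95% confidence interval, in MS2 (left) and MS5 (right), grouped by role; filled points had an unadjusted p under 0.05. In the plot 39 of 47 genes are lower in MS2 and 42 of 47 in MS5, most intervals reach 0, and Cdc45 is the only filled point above 0.

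**Figure D4:**
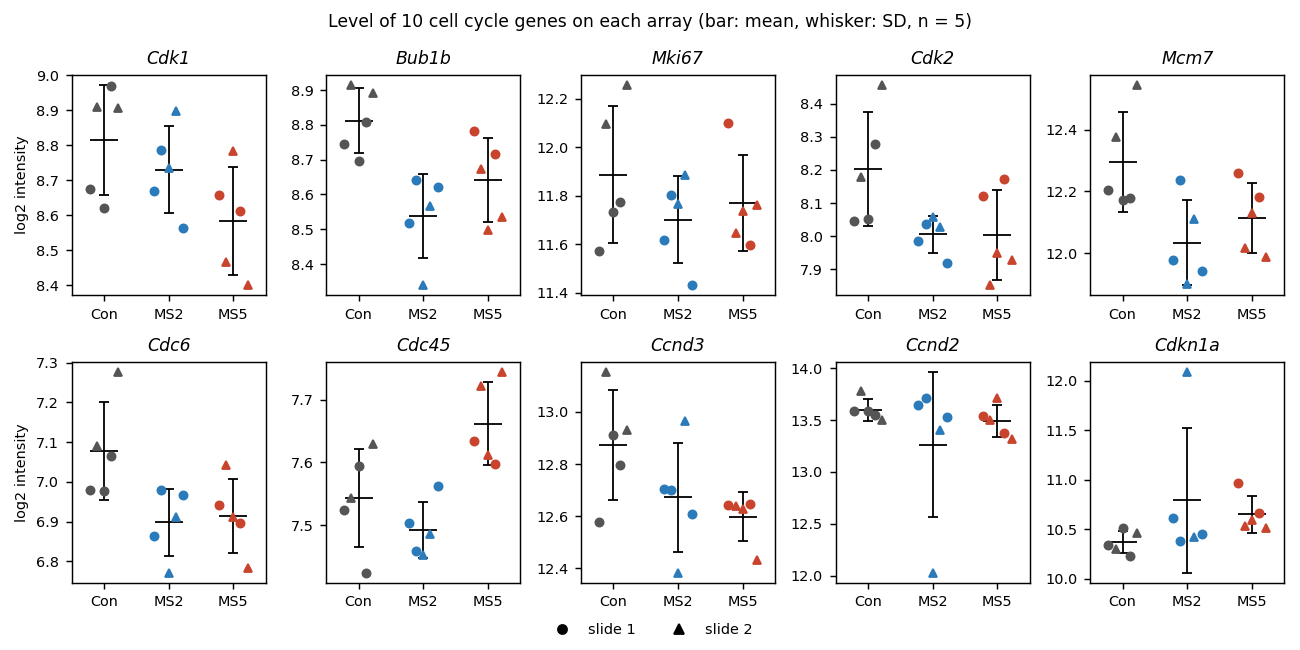
Log2 intensity of 10 cycle genes on each array in Con, MS2 and MS5, with the mean (bar) and SD (whisker, n = 5 arrays); circles are slide 1 and triangles slide 2, and each panel has its own scale. Bub1b in MS2 lies wholly below Con (-0.27), Cdc45 in MS5 wholly above MS2 (0.17), and MS2 replicate 4 stands alone in Ccnd2 (12.03) and Cdkn1a (12.09).

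The median MS5 difference had opposite signs on the slides. With 2 or 3 animals of a group on a slide, differences between slides and between animals cannot be told apart. The Con arrays also differed, with cycle probe medians of -0.11, -0.11 and 0.02 on slide 1 and 0.03 and 0.15 on slide 2. On slide 1, with 2 MS5 and 3 Con arrays, 25 of 67 cycle probes were lower in MS5, the median difference was 0.03, and 11 were called, 10 of them higher, where 7.79% of all probes were called. On slide 2, with 3 MS5 and 2 Con arrays, 58 of 67 were lower, the median was -0.23, and 24 were called, 23 of them lower, where 3.43% of all were called. The difference between the slides was tested as a term of the fit over all probes. It was called for 20 of the 67 cycle probes, where 4.42% of all probes were called. Each of the 20 had a lower MS5 difference on slide 2, and none passed adjustment (adjusted p = 0.990 by limma). The probes of this and the other counts are not independent. Cycle genes tended to move together by array, as in Con replicate 19, and some genes have several probes. The count thus rests on few animals.

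By role, the split was called for 7 of 10 chromosome and spindle probes, 6 of 14 mitotic probes, 3 of 13 licensing and helicase probes, 3 of 12 polymerase and nucleotide probes, 1 of 13 G1 probes and 0 of 5 inhibitor probes. All 10 chromosome and spindle probes were lower in MS5 on slide 2 (median -0.42) and 0 of 10 on slide 1 (median 0.14). Cenpa, the histone that marks centromeres, read 9.73, 9.78 and 9.99 in the Con arrays of slide 1 and 10.17 and 10.26 in those of slide 2, and 10.04 and 9.97 in MS5 on slide 1 against 9.84, 9.69 and 9.77 on slide 2. MS5 was thus the higher group on average on slide 1, with 1 control between its arrays, and lay wholly below Con on slide 2. Its MS5 difference was 0.17 on slide 1 and -0.45 on slide 2 (difference between slides -0.63, SE 0.115, adjusted p = 0.990 by limma). Ccnb1 gave 0.17 and -0.46 by its brightest probe and Top2a 0.22 and -0.41. Mki67 gave 0.16 and -0.46 and Mcm4 0.23 and -0.24, and all of these were called for the split. Mcm7 and Cdk2, which were called over all arrays, gave 0.03 and 0.02 on slide 1 against -0.42 and -0.41 on slide 2. Of the genes whose promoters are printed above, Ccnb1, Bub1b, Cenpa, Mcm7 and Cdk2 were called for the split, and Cdk1 was not. Among all members 20 of 67 probes were called, and 4.42% of all probes were. The printed genes were picked because the results turn on them, so their calls are no test.

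For MS2, on slide 1 (3 MS2 and 3 Con arrays) 49 of 67 were lower with 2 called and a median of -0.03, where 3.09% of all were called. On slide 2 (2 and 2) 53 were lower with 12 called and a median of -0.16, where 5.26% of all were called. The difference between the slides was called for 9 of 67, where 5.10% of all were. Slide 2 held MS2 replicate 4, which went against its label, and replicate 5, the dim array. The counts on slide 2 and between the slides rest on these arrays, and leaving either out left a single MS2 array there. The median difference between the slides over the members was -0.08 without replicate 4 and -0.18 without replicate 5, against -0.11 with all arrays. The difference between the slides for MS5 versus MS2 equals that for MS5 versus Con minus that for MS2 versus Con. It therefore tests whether the slides differed more for MS5 than for MS2. It was called for 21 of 67, 17 of them lower on slide 2, where 10.6% of all were called, and 0 passed adjustment. This count also rests on the MS2 arrays of slide 2.

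The split for MS5 was recomputed with arrays left out. Leaving out each array in turn, 12 to 27 of 67 were called for the difference between the slides, with 12 without Con replicate 19 (2.71% of all probes), 13 without MS5 replicate 8 (4.03%) and 27 without MS5 replicate 12 (5.78%). Without MS2 replicate 4 and MS5 replicate 9 it was 20, where 6.79% of all probes were called. Leaving out Con replicate 19 left a single Con array on slide 2, and leaving out MS5 replicate 8 left a single MS5 array on slide 1. Single arrays stood apart on both slides. The controls of slide 2 included Con replicate 19, the highest control of most cycle genes, and the MS5 arrays of slide 2 included replicates 9 and 14. Choroid plexus markers, from the tissue that lies in the ventricle beside the hippocampus, had medians of -2.06 and -2.79 relative to the control mean on those arrays, -0.08 on MS5 replicate 12 of the same slide, and -0.32 and -0.92 on the MS5 arrays of slide 1. Hypothalamus and thalamus markers had medians of 1.39 and 0.28 on MS5 replicates 8 and 13 of slide 1 and of -0.11, 0.43 and 0.58 on replicates 9, 12 and 14 of slide 2. The MS5 arrays of the slides thus overlapped for this list and, at replicate 12, for choroid plexus. The part of these in the result was not tested.

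**Figure D5:**
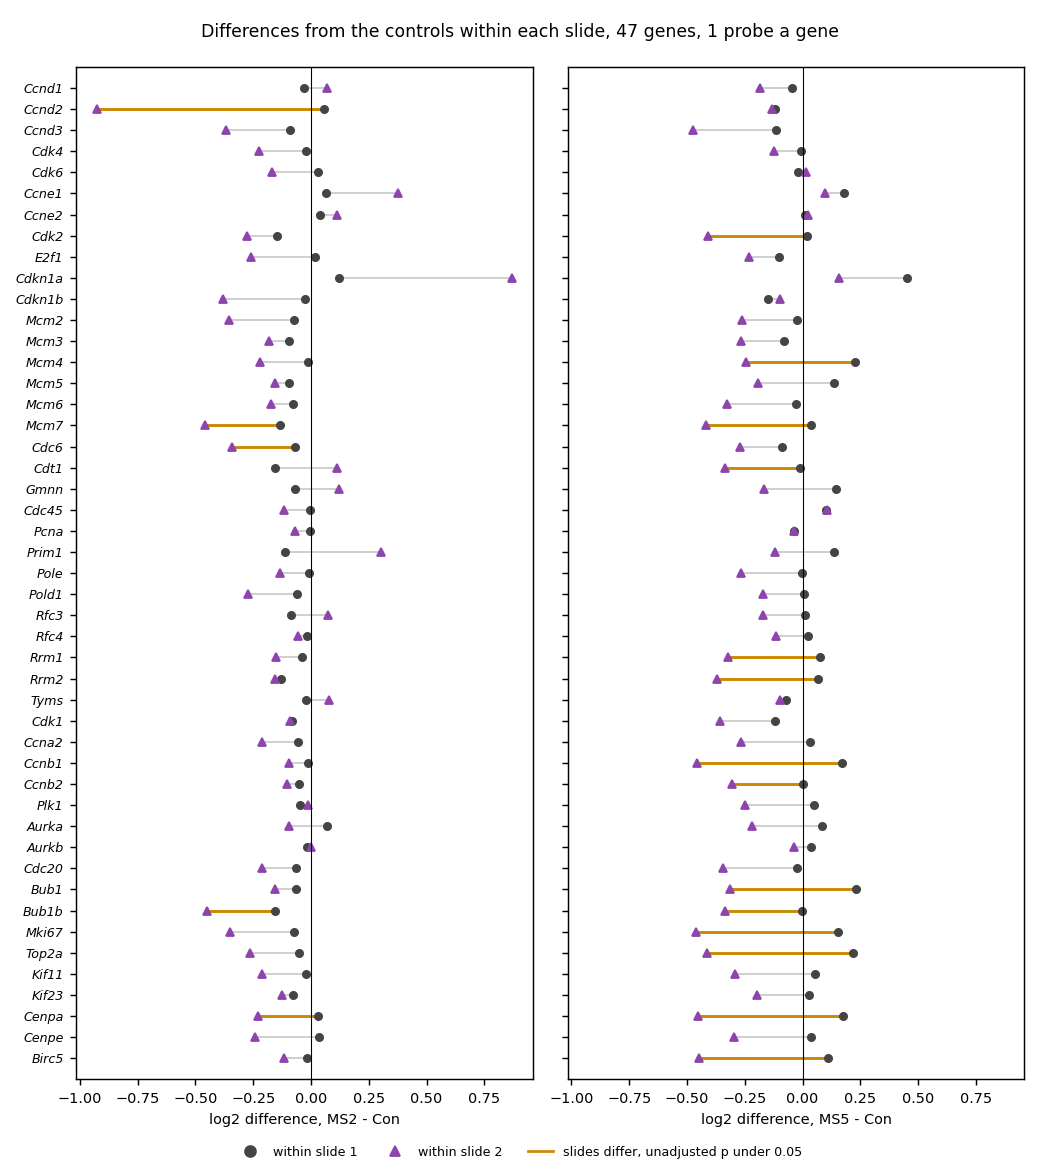
Log2 difference from Con within slide 1 (circles) and within slide 2 (triangles) for the 47 genes (1 probe a gene), MS2 on the left and MS5 on the right; a thick ochre line marks genes whose slides differed at an unadjusted p under 0.05. In MS5 most circles sit at or above 0 and most triangles below it, as for Cenpa (0.17 and -0.45) and Mki67 (0.16 and -0.46).

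Marker lists moved beside these comparisons. The lists were chosen with earlier results of these data known, so their counts describe the arrays and are no independent test. From these arrays the study had reported Aqp1, Cldn2, Folr1, Slc4a5, Kl and Msx1 as lower in MS5, and Avp and Trh as higher. Over all 5 arrays, 16 of 17 choroid plexus probes were called lower in MS5 versus Con, where 2.43% of all probes were. Their median was -1.27, and none of the 17 was called in MS2. Their summed linear level ran from 243884 to 370402 in Con, from 257645 to 334574 in MS2 and from 13215 to 299361 in MS5. Without MS5 replicates 9 and 14, the lowest for this list, 43 of 67 cycle probes were lower in MS5. Then 1 was called and the median was -0.02, where 2.32% of all probes were called. These arrays were also the lowest of MS5 for the cycle probes themselves, with medians of -0.15 and -0.20. Leaving them out was thus bound to raise the MS5 level of the cycle probes, and the part of choroid plexus was not tested. Without MS5 replicate 14 alone, 52 were lower and 0 were called by limma at an unadjusted p under 0.05, where 2.7% of all were. No choroid plexus probe was below background throughout. Of 14 hypothalamus and thalamus probes 4 were called higher in MS5 (Avp, Oxt, Trh and Sim1) and none in MS2. Over all probes 3.90% were called in MS5 versus Con in either direction. The called Sim1 probe was well above background on 1 array and the uncalled Otp probe on 0. The Lhx9 probes differed by 0.09, -0.003 and -0.18 in MS5, not called. The summed level of the hypothalamus and thalamus list ran from 3809 to 6015 in Con, from 3524 to 30127 in MS2 and from 3714 to 14857 in MS5.

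Markers of the cells that divide were also read. Of 19 probes for neural progenitors and dentate neuroblasts none was called, with medians of -0.17 in MS2 and -0.13 in MS5. Their summed level ran from 68157 to 87733 in Con, from 65932 to 78737 in MS2 and from 62334 to 74886 in MS5, so the groups overlapped. Of 9 probes for oligodendrocyte precursors none was called, with medians of 0.05 and 0.00. Of 12 probes for mature oligodendrocytes none was called, and 12 of 12 were higher in MS5 with a median of 0.33, against 10 of 12 in MS2 with 0.21. Their array medians were 1.06 in Con replicate 19, 1.35 and 0.80 in MS5 replicates 8 and 13 of slide 1, and -0.72, 0.48 and -0.27 in replicates 9, 12 and 14 of slide 2. The meninges list stood at -0.93 in Con replicate 19 and from 0.07 to 0.52 on the other controls. The part of these cells in the cycle gene differences was not tested.

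The pathways were also read through genes outside the set. Of 159 probes for other replication genes, other mitosis genes and regulators of the cycle, 122 were lower in MS2, where 51.0% of all probes were. In MS2 17 of the 159 were called lower and 2 higher, where 2.12% of all were called lower. In MS5 121 were lower, where 49.8% of all were. There 17 were called lower and 1 higher, where 2.43% of all were called lower. The medians were -0.07 and -0.06. Other mitosis genes (67 probes) had 8 called lower in MS2 and 6 in MS5, beside the same shares of all probes, and none called higher. No probe of these lists passed 1.5-fold with an unadjusted p under 0.05. By limma the genes of smallest p in MS2 were Tfdp1, a partner of the E2F factors, at -0.29 (exact permutation p = 0.0159), Dlgap5, a spindle protein, at -0.16 (exact permutation p = 0.0238), and E2f5, a repressor of the E2F family, at -0.13 (exact permutation p = 0.00794). The brightest probe of Dlgap5 gave -0.03 and that of Tfdp1 -0.20. In MS5 they were Cdc7, the kinase that fires origins, at 0.17 (exact permutation p = 0.00794), Gadd45g, a stress-induced inhibitor of growth, at -0.32 (exact permutation p = 0.0159), and Cdc25b, a phosphatase that activates Cdk1, at -0.19 (exact permutation p = 0.0238). Cdc7 was the 1 probe of these lists called higher in MS5, against 17 called lower. Cdc45 was likewise the only member probe called higher there. Neither passed adjustment, and a link between them was not tested. Between MS5 and MS2 they were E2f5 at 0.12 (exact permutation p = 0.0159), Skp2, which marks p27 for destruction, at 0.18 (exact permutation p = 0.00794), and Cdc25b at -0.16 (exact permutation p = 0.0397).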

How the data were processed

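Single-colour Agilent 8x60K mouse arrays of 15 hippocampi were scanned and read by the authors with Agilent Feature Extraction (10.7.1.1 per the file headers), whose deposited spot intensity values are on a linear scale with mm9 probe positions. The authors' deposited log2 table was corrected for background with normexp (offset 50) and quantile normalised. It was rebuilt from the intensities to within 5e-09 and used as given, 1 probe at a time. Groups follow the labels. limma (3.58.1, R 4.3.3) was fitted without covariates to all 55681 non-control probes over the 15 arrays, and its steps were tested on simulated data. Single probes were also compared by two-sided exact permutation over 252 assignments. A gene stands by its brightest probe. Named genes were 21 anchors over the roles, members called in any contrast, and the 3 other pathway genes of smallest p per contrast. Members and lists were chosen with earlier results of these data known. The number of arrays limits the precision. Alternatives covered background, normalisation, dim probes, slides, array weights and left-out arrays. MicroRNA arrays were not used here. Figures were drawn with matplotlib (3.10.9). Sequence letters are those of RefSeq.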

Additional observations from a re-analysis of the deposited data

Results flagged for a closer look

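Within a group, the array farthest from the rest was set against Dixon's limit for 5 values. Of 84 gene and group pairs 6 passed it, and chance gives about 1 in 20. In MS2 replicate 4, Ccnd2 was 12.03 against a mean of 13.57 on the other MS2 arrays, Cdkn1a was 12.09 against 10.47 and Cdkn1b was 12.04 against 12.66. Ccnd3 was 12.43 in MS5 replicate 14 against 12.64, Mcm6 was 12.89 in MS5 replicate 12 against 13.16, and Pcna was 13.43 in Con replicate 17 against 13.59.

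Of 69 list and group pairs 7 passed, 6 of them on MS2 replicate 4. Relative to the control mean, its median was 2.56 for hypothalamus and thalamus markers, -1.98 for hippocampal neurons, -0.73 for neural progenitors and dentate neuroblasts, 0.58 for oligodendrocyte precursors, 0.035 for endothelium and -0.18 for regulators of the cycle. The other was hippocampal neuron markers in Con replicate 19, at -0.25. In MS5 replicate 9 the Xist probes, which are outside the cycle genes, read 9.45 and 11.3, against means of 5.95 and 5.98 on the other arrays.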

How the results depend on the processing

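No paired analysis was possible because the groups of these arrays share no replicate numbers, and the labels give no litter. Within slide 1 and within slide 2, members called numbered 2 and 12 in MS2 versus Con, 11 and 24 in MS5 versus Con, 11 and 11 in MS5 versus MS2 (8.30% and 6.61% of all probes), and 9 and 26 for the dose trend (7.78% and 3.53%). Within slide 1, 25 members were lower in MS5 versus Con (median 0.0326, and -0.23 within slide 2), 18 in MS5 versus MS2 and 25 for the dose trend (median 0.00652, and -0.043 within slide 2). Some named genes called over all arrays or within slide 1 changed sign within slide 1. In MS5 versus Con these were Cdk2 (0.0200), Mcm7 (0.0349) and Gmnn (0.15). In MS5 versus MS2 they were Ccnd2 (-0.17), Cdkn1a (0.33) and Gmnn (0.22), and for the dose trend Cdk2 (0.0040). Genes called in neither fit changed sign there too, among them Mki67 (0.16), Top2a (0.22), Ccnb1 (0.17) and Birc5 (0.11) in MS5 versus Con. In what follows the share of all probes called is in brackets. The processed signal scaled to its 75th percentile gave 4 calls in MS5 versus Con (3.29%), 2 in MS5 versus MS2 (3.05%) and 3 for the dose trend (3.35%). Normexp with offset 0 gave 3 for the dose trend (4.04%), and a fit to the compared groups alone gave 13 in MS5 versus Con (5.76%). In MS5 versus MS2, array weights gave 3 calls (9.69%) and slide as a block 2 (4.82%). Without MS2 replicate 4 and MS5 replicate 9, 4 were called in MS5 versus MS2 (5.84%) and 8 for the dose trend (5.88%). Cdkn1a (a difference of 0.22) and Cdkn1b (of -0.10) then turned over in MS5 versus MS2. With the dim array left out as well, 4 (7.19%) and 8 (6.7%) were called, 24 members were lower in MS5 versus MS2 and Cdkn1b was -0.11. Without MS5 replicates 9 and 14, 1 was called in MS5 versus Con (2.32%). Then 2 were called in MS5 versus MS2 (2.27%), with 22 members lower, and 0 for the dose trend by limma (2.44%). The causes were not tested. Leaving out each array in turn gave 3 to 9 calls in MS2 versus Con, 0 to 11 in MS5 versus Con, 1 to 3 in MS5 versus MS2 and 1 to 10 for the dose trend. The 0 was without MS5 replicate 14, the 11 without Con replicate 15 or MS2 replicate 4. Over all probes the shares called ran from 2.93% to 6.58%, 2.7% to 5.92%, 2.76% to 6.78% and 2.72% to 6.37% in the same order. Members lower then numbered 46 to 60, 50 to 59, 32 to 46 and 49 to 59, with medians from -0.11 to -0.05, -0.12 to -0.04, -0.05 to 0.01 and -0.02 to -0.01. Bub1b in MS2 versus Con had an unadjusted p under 0.05 under every alternative run. Of the results on named genes that were called, 382 repeats kept the call, 136 lost it and 3 changed sign. Aurkb, Ccne2 and Cdk6, near background, have little signal with which to show a change.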
